A study of Rattus norvegicus with 10 samples.

Results

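The calcium/calmodulin-dependent protein kinases (CaM kinases) and the calcium-activated phosphatase calcineurin were described here by the mRNA of 8 genes: Camk2a, Camk2b, Camk2d, Camk2g, Camk4, Ppp3ca, Ppp3cb and Ppp3r1. The genes were taken from a list of names, and each was read from the RefSeq RNA record with the highest mean count. Those 8 records belong to a table of 32041 records that carried 16604 different gene symbols. A single record was present for 7 of the genes, and Camk2b had 3.

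Messenger RNA was sequenced from 10 adult male Sprague-Dawley rats, 5 with a sham operation and 5 with traumatic brain injury (TBI). All rats were anaesthetised and had a craniectomy over the left parietal lobe, and TBI rats also received a lateral fluid percussion, a pressure pulse onto the intact dura, with a mean severity of 3.32 atm. The left hippocampal tissue, containing CA3 and dentate gyrus and labelled dorsal hippocampus, was taken 3 months later, and each rat was processed on its own. Injured rats were not monitored by EEG and showed no seizures on handling, and their epilepsy status is not given.

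When calcium enters a neuron through NMDA receptors or calcium channels it binds calmodulin, and calcium-loaded calmodulin switches on both the CaM kinases and calcineurin. CaMKII is an abundant synaptic kinase built from alpha, beta, delta and gamma subunits, and it can keep itself active by autophosphorylation once calcium has fallen. CaMKIV acts mainly in the nucleus, where it phosphorylates the transcription factor CREB. Calcineurin, a catalytic A subunit joined to a calcium-binding B subunit, removes phosphates and is known for its part in long-term depression and in moving NFAT factors into the nucleus.

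From 23425817 to 31671838 counts fell on RNA records in each library. The share of ribosomal RNA among them was 12.5% to 26.2% in 8 rats, but 59.0% and 58.5% in the sham rats numbered 4 and 5. Levels are therefore given in CPM, the usual scaled count, with each library size adjusted by the trimmed mean of M values (TMM). Transcript lengths were not used here, so levels are compared between rats and not between genes.

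The first question was whether the 8 genes differ between TBI and sham rats 3 months after the injury. None of the 8 did so in these data: 0 of 8 had an unadjusted p under 0.05 in edgeR's quasi-likelihood test, and 0 of 8 passed an adjusted p of 0.05. Over all 22431 records tested, 7.89% had an unadjusted p under 0.05, with 4.89% higher and 3% lower in TBI, and 0% passed the adjusted threshold. The 4 other tests were DESeq2, limma with voom and sample weights, and edgeR's likelihood ratio and exact tests. With each of them 0 of the 8 genes had an unadjusted p under 0.05. Sham and TBI values overlapped in all 8 cases, while 0.923% of all records had groups that did not overlap. Estimated changes were 4 positive and 4 negative, from -0.12 to 0.19 on the log2 scale, with a median of -0.01. The median over all records was also -0.01.

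**Figure D1:**
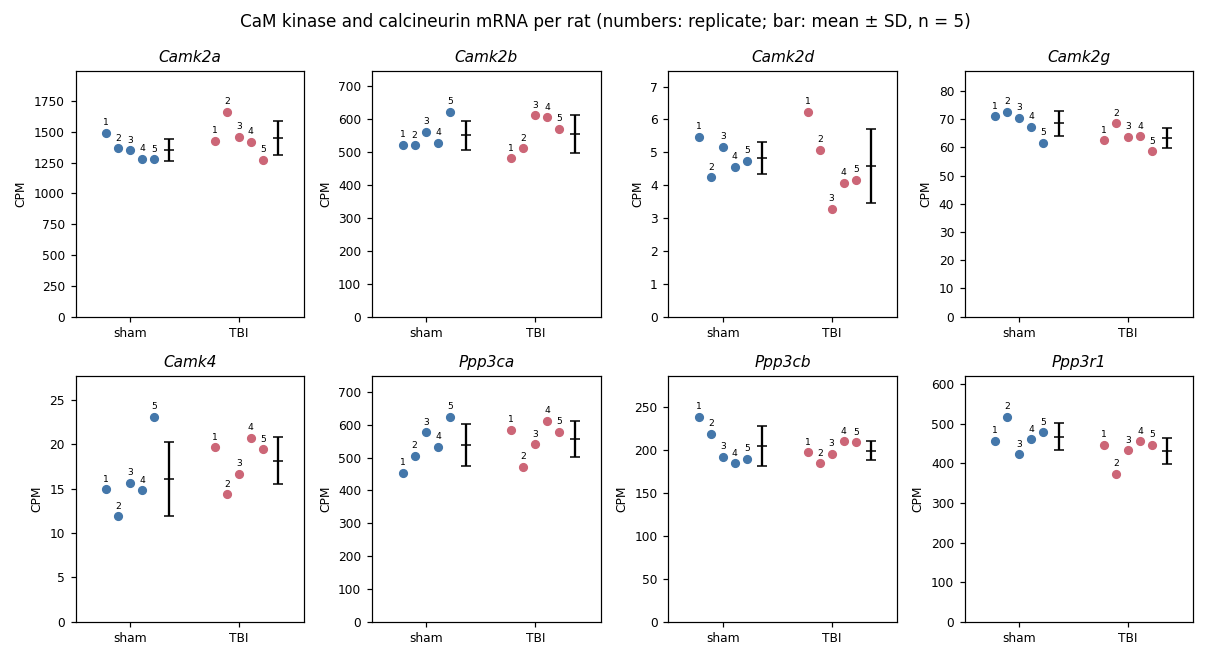
Level of each of the 8 genes in each rat, in CPM on axes that start at 0, with sham rats in blue, TBI rats in red, replicate numbers above the points and the mean ± SD (n = 5) beside each group. The sham and TBI points overlap in every panel, and sham replicate 5 has the highest Camk4 value, 23.1 CPM.

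Camk2a encodes the alpha subunit, the main forebrain form of CaMKII. Its level was 1493, 1367, 1349, 1281 and 1275 CPM in sham replicates 1 to 5 and 1427, 1662, 1459, 1418 and 1272 CPM in TBI replicates 1 to 5. TBI replicate 2 was the highest rat and TBI replicate 5 the lowest, so the injured group spanned the whole sham range. The log2 change was 0.10 with a standard error of 0.0870 (adjusted p = 0.831 in edgeR's quasi-likelihood test), and its 95% interval ran from -0.08 to 0.28, at most a 1.21-fold rise. Without TBI replicate 2 the log2 change was 0.043 (unadjusted p = 0.632 in edgeR).

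Markers of CA1 pyramidal neurons, cells outside the dissected fields, also varied between these rats. The 6 CA1 markers listed were all measured, none was at 0 over the libraries, and 3 of them were higher in TBI at an unadjusted p under 0.05. Over all records 4.89% were higher at that threshold, and 0% passed the adjusted threshold. The CA1 markers are summed below. Their summed level was from 72.3 to 153 CPM in sham rats and from 55.9 to 510 CPM in TBI rats, with 510 CPM in TBI replicate 2. TBI replicate 2 was the highest rat in both the CA1 sum and Camk2a. Camk2a in TBI replicates 1 and 5, with CA1 sums of 304 and 199.9 CPM, was 1427 and 1272 CPM. In TBI replicate 4, with the lowest CA1 sum, Camk2a was 1418 CPM. Sham replicate 1 had a CA1 sum of 110 CPM and 1493 CPM of Camk2a. The part of CA1 tissue in the Camk2a values was not tested. In bulk tissue, fewer cells of a type and less RNA per cell cannot be told apart.

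Camk2b encodes the beta subunit, which anchors the CaMKII holoenzyme to actin. It was 522, 519, 559.9, 526 and 622 CPM in sham replicates 1 to 5 and 480.1, 510.1, 610.4, 605 and 570.0 CPM in TBI replicates 1 to 5. TBI replicates 1 and 2 lay below every sham rat and sham replicate 5 lay above every other rat. The log2 change was 0.014 with a standard error of 0.0878 and a 95% interval from -0.17 to 0.20. The 3 Camk2b records had similar mean counts, 14567, 14826 and 16377, and log2 changes of 0.0029, -0.0020 and 0.014. Splice forms of the subunit share most of their sequence, and whether a shared read was counted in each record is not stated, so the 3 values are not independent.

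Camk2g and Camk2d encode the gamma and delta subunits, which are found in many tissues. Camk2g was 71.0, 72.6, 70.4, 67.2 and 61.5 CPM in sham replicates 1 to 5 and 62.5, 68.5, 63.6, 63.9 and 58.6 CPM in TBI replicates 1 to 5. Every TBI rat lay below the sham mean of 68.6 CPM, but sham replicate 5 lay below 4 of the 5 TBI rats. The log2 change of Camk2g was -0.11 with a standard error of 0.0732, the smallest error of the 8 genes, and its unadjusted p was 0.138 in edgeR's quasi-likelihood test. Camk2d had 67 to 215 counts per library, the fewest of the 8 genes. It was 5.46, 4.24, 5.17, 4.55 and 4.75 CPM in sham rats and 6.23, 5.08, 3.29, 4.08 and 4.17 CPM in TBI rats, in order of replicate. Its highest and lowest rats, TBI replicates 1 and 3, were both injured. The 95% interval of its log2 change, from -0.40 to 0.23, reached from a fall of 1.32-fold to a rise of 1.17-fold.

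Camk4 encodes CaMKIV. It was 14.9, 11.9, 15.7, 14.8 and 23.1 CPM in sham replicates 1 to 5 and 19.7, 14.3, 16.7, 20.7 and 19.4 CPM in TBI replicates 1 to 5. Of the TBI rats, 4 exceeded sham replicates 1 to 4, and sham replicate 5 exceeded every TBI rat. The log2 change was 0.19 with a standard error of 0.148 and a 95% interval from -0.13 to 0.50 (adjusted p = 0.804 in edgeR's quasi-likelihood test).

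The Camk4 value moved in both directions when single sham rats were left out. Without sham replicate 2, the rat with the lowest level, the log2 change was 0.092 (unadjusted p = 0.519 in edgeR's quasi-likelihood test). Without sham replicate 5, a library rich in ribosomal RNA, the log2 change was 0.34 with a standard error of 0.116 (unadjusted p = 0.00944, adjusted p = 0.656 in edgeR's quasi-likelihood test), where 3.83% of all records were higher in TBI at an unadjusted p under 0.05. Without both sham rats rich in ribosomal RNA it was 0.36 (unadjusted p = 0.0144, adjusted p = 0.876 in edgeR), where 3.3% of records were higher at that threshold. With the ribosomal RNA share as a covariate it was 0.45 (unadjusted p = 0.0199, adjusted p = 0.998 in edgeR), against 2.08% of records. Its level in sham replicate 4, the other library rich in ribosomal RNA, was 14.8 CPM, inside the range of the remaining sham rats. Over the 23 alternatives the log2 change was from 0.09 to 0.75, positive in each, and the unadjusted p was under 0.05 in 4. The 0.75 came from total count scaling, where the median of all records was 0.50 and 16.8% of records were higher at that threshold. Among the other alternatives the highest log2 change was 0.45. No alternative brought Camk4 past the adjusted threshold.

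**Figure D2:**
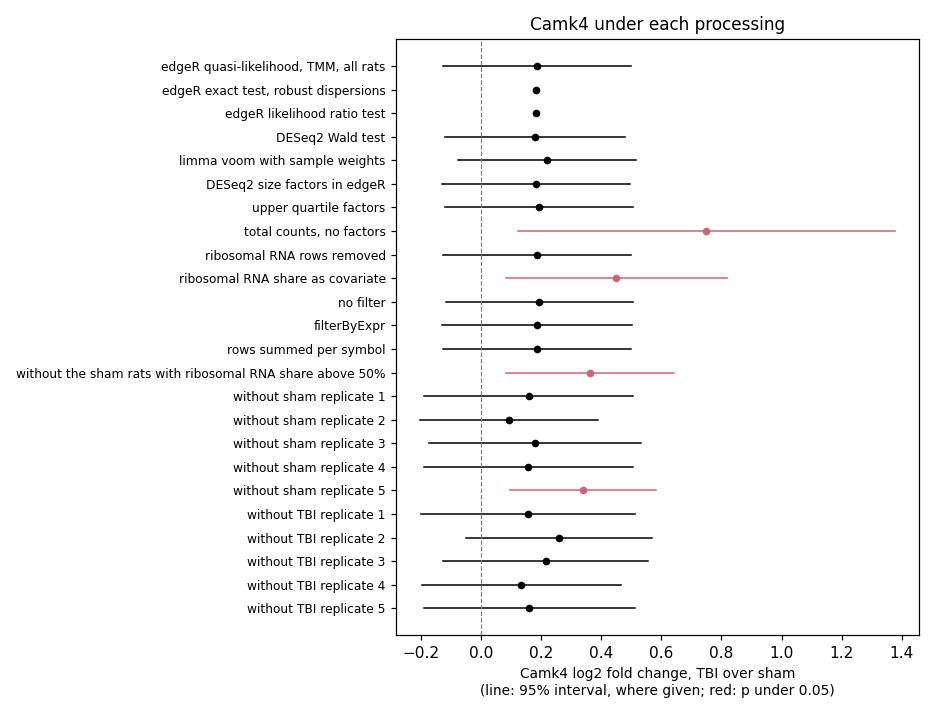
Camk4 log2 fold change, TBI over sham, in the main fit and its 23 alternatives, with 95% intervals where the method gives one and fits with an unadjusted p under 0.05 in red. Every point is above 0, and the 4 red ones are total count scaling, the ribosomal RNA covariate, the fit without sham replicate 5 and the fit without both sham rats rich in ribosomal RNA.

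Dentate granule markers varied between the same rats. Of 7 listed markers, 5 had a record and 4 were tested, none of the 5 was at 0 and 0 of the 4 had an unadjusted p under 0.05. Their summed level was from 60.1 to 225 CPM in sham rats and from 94.4 to 209 CPM in TBI rats. Sham replicate 5, highest in Camk4, also had the highest dentate sum, and TBI replicate 5, with 19.4 CPM of Camk4, had the lowest of the TBI rats. Sham replicate 1, with the lowest dentate sum of all, had 14.9 CPM of Camk4. The part of dentate tissue in these values was not tested.

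Ppp3ca and Ppp3cb encode the alpha and beta forms of the calcineurin catalytic subunit. Ppp3ca was 455, 506, 577, 532 and 624 CPM in sham replicates 1 to 5 and 585, 472, 540.5, 612 and 578 CPM in TBI replicates 1 to 5. The lowest and the highest rat were both sham. Its log2 change was 0.05 with a standard error of 0.0952 and a 95% interval from -0.15 to 0.25. With the ribosomal RNA share as a covariate it was 0.17 (unadjusted p = 0.199 in edgeR). Ppp3cb was 238, 218, 192, 184 and 189.6 CPM in sham replicates 1 to 5 and 197, 184, 195, 209.6 and 208 CPM in TBI replicates 1 to 5. Sham replicates 1 and 2 stood above every TBI rat, and 4 of the 5 TBI rats stood above the other sham rats. Its log2 change was -0.04 with a standard error of 0.0829 and a 95% interval from -0.21 to 0.13, and with the covariate it was -0.15 (unadjusted p = 0.195 in edgeR).

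Ppp3r1 encodes the calcineurin B regulatory subunit that binds calcium. It was 457, 517, 422, 460.2 and 479 CPM in sham replicates 1 to 5 and 447, 373, 433, 455 and 447 CPM in TBI replicates 1 to 5. All TBI rats lay below the sham mean of 467 CPM, yet sham replicate 3 lay below 4 of them. The log2 change was -0.12 with a standard error of 0.0816 (unadjusted p = 0.175, adjusted p = 0.769 in edgeR's quasi-likelihood test). The 95% interval was from -0.29 to 0.06, which leaves room for a fall of up to 1.22-fold. Without TBI replicate 2, the lowest rat, the log2 change was -0.068 (unadjusted p = 0.424 in edgeR).

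**Figure D3:**
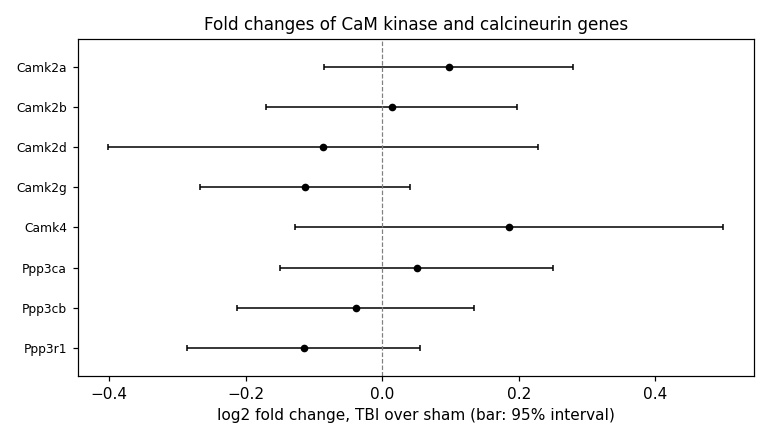
Log2 fold change, TBI over sham, of the 8 genes with its 95% interval from edgeR's quasi-likelihood fit. Every interval crosses 0, and those of Camk2d and Camk4 are the widest, with standard errors of 0.150 and 0.148.

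Camk2d and Camk4 varied most between rats of a group, with a within-group SD of 0.264 and 0.288 on the log2 scale. The median SD within a group was 0.129 on the log2 scale for the 8 genes and 0.203 over all records tested. These 2 medians were not matched for counts. The 8 genes had mean counts per library from 140 to 42201, while records were tested from a total of 44. The highest rat exceeded the lowest by 1.24-fold for Camk2g, 1.29-fold for Ppp3cb, 1.30-fold for Camk2b and 1.31-fold for Camk2a. The corresponding values were 1.37 for Ppp3ca, 1.39 for Ppp3r1, 1.90 for Camk2d and 1.94 for Camk4, the 2 genes with the fewest counts. When libraries were scaled by total counts, which include ribosomal RNA, the median log2 change of all records moved to 0.50 and 16.8% of records were higher in TBI at an unadjusted p under 0.05. Calls at that threshold were then 3762 higher and 26 lower, against 1097 and 672 with TMM. Relative to that median the 8 genes had changes from -0.13 for Camk2g to 0.25 for Camk4, each with the sign it had under TMM.

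A ratio of subunits within a rat does not depend on how its library is scaled, and the second comparison used 4 such ratios. The test was an exact permutation of the group labels, two-sided (n = 5 and 5, smallest possible p 0.00794), with p adjusted over the 4 ratios. None of the 4 reached an adjusted p of 0.05, with values from 0.635 to 0.968 in these exact tests.

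Camk2a over Camk2b, which describes the balance of the neuronal CaMKII subunits in reads, was 2.86, 2.63, 2.41, 2.43 and 2.05 in sham replicates 1 to 5. In TBI replicates 1 to 5 it was 2.97, 3.26, 2.39, 2.34 and 2.23. TBI replicates 1 and 2 had the highest ratios of all rats, and the other TBI rats lay within the sham range. On the log2 scale the mean was 1.30 ± 0.178 (SD, n = 5) in sham and 1.38 ± 0.239 (SD, n = 5) in TBI rats, a difference of 0.08 with a standard error of 0.133 (exact permutation p = 0.548). Camk2d over Camk2g differed by 0.0040 on the log2 scale with a standard error of 0.170 (exact permutation p = 0.968).

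Ppp3ca over Ppp3cb was 1.91, 2.32, 3.01, 2.89 and 3.29 in sham replicates 1 to 5 and 2.97, 2.57, 2.76, 2.92 and 2.78 in TBI replicates 1 to 5. All TBI rats lay inside the sham range. The log2 difference was 0.09 with a standard error of 0.147 (exact permutation p = 0.603), and 0.24 without the sham rats rich in ribosomal RNA (exact permutation p = 0.143). Ppp3r1 over Ppp3ca, the regulatory over the catalytic subunit, was 1.01, 1.02, 0.733, 0.865 and 0.767 in sham replicates 1 to 5. It was 0.764, 0.791, 0.801, 0.744 and 0.774 in TBI replicates 1 to 5. Sham replicates 1, 2 and 4 stood above every TBI rat and sham replicate 3 below every one. The log2 difference was -0.17 with a standard error of 0.0998 (exact permutation p = 0.159, adjusted p = 0.635). Without sham replicate 3 it was -0.23 (exact permutation p = 0.0317, not adjusted). That was the only 1 of 13 alternatives for this ratio with an exact permutation p under 0.05, and the highest was 0.302.

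**Figure D4:**
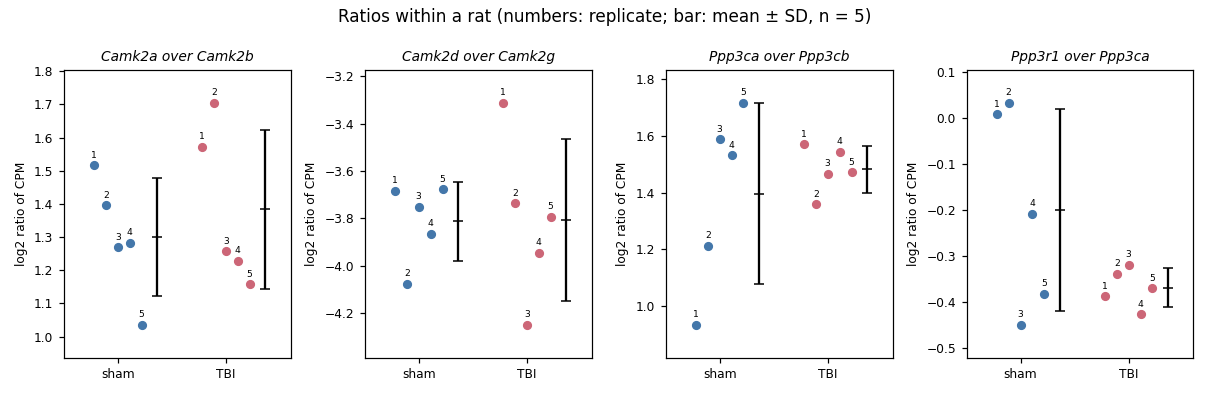
Log2 ratio of CPM within each rat for 4 pairs of subunit genes, with sham rats in blue, TBI rats in red, replicate numbers above the points and the mean ± SD (n = 5) beside each group; the axes do not start at 0. In the panel of Ppp3r1 over Ppp3ca the TBI rats lie between -0.43 and -0.32 and the sham rats between -0.45 and 0.03.

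The third comparison took 58 other genes of calcium and calmodulin signalling, of which 56 had a record and 55 were tested. Of the 55, 2 were higher and 1 was lower in TBI at an unadjusted p under 0.05, which is 5.45% against the 7.89% of all records, and 0 passed the adjusted threshold in edgeR's quasi-likelihood test. The median log2 change of the 55 was -0.01. Changes ran from -0.43 to 0.38.

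The gene with the smallest p was Ppp1r1b (DARPP-32), an inhibitor of protein phosphatase 1 that calcineurin dephosphorylates. It was 55.2, 63.2, 85.4, 58.5 and 84.0 CPM in sham replicates 1 to 5 and 95.5, 97.4, 86.2, 84.2 and 88.2 CPM in TBI replicates 1 to 5. All 5 TBI rats lay above the sham mean of 69.3 CPM. Sham replicate 3 lay above 1 TBI rat, and sham replicate 5 lay just below all of them. The log2 change was 0.38 with a standard error of 0.113 (unadjusted p = 0.00332, adjusted p = 0.483 in edgeR's quasi-likelihood test). The unadjusted p was under 0.05 in 23 of 23 alternatives, with log2 changes from 0.31 to 0.89. The 0.89 came from total count scaling, where the median of all records was 0.50, and the others were at most 0.47. All the alternatives reuse these rats, so they are not independent of each other.

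Pcp4l1, a relative of the calmodulin-binding protein Pcp4, was the lower gene. It was 9.68, 7.65, 4.97, 9.04 and 9.12 CPM in sham replicates 1 to 5 and 5.89, 5.40, 6.60, 5.03 and 6.76 CPM in TBI replicates 1 to 5. Sham replicate 3 was the lowest of all rats, and the other 4 sham rats lay above every TBI rat. The log2 change was -0.43 with a standard error of 0.153 (unadjusted p = 0.0112, adjusted p = 0.511 in edgeR's quasi-likelihood test). It was -0.32 without the sham rats rich in ribosomal RNA (unadjusted p = 0.0924 in edgeR). Under total count scaling it was 0.12, where the median of all records was 0.50. The unadjusted p of Pcp4l1 was under 0.05 in 20 of 23 alternatives. The other higher gene was Eef2k, the calmodulin-dependent kinase of elongation factor 2. Its log2 change was 0.17 with a standard error of 0.0778 (unadjusted p = 0.0420 in edgeR's quasi-likelihood test), and it kept an unadjusted p under 0.05 in 12 of 23 alternatives.

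**Figure D5:**
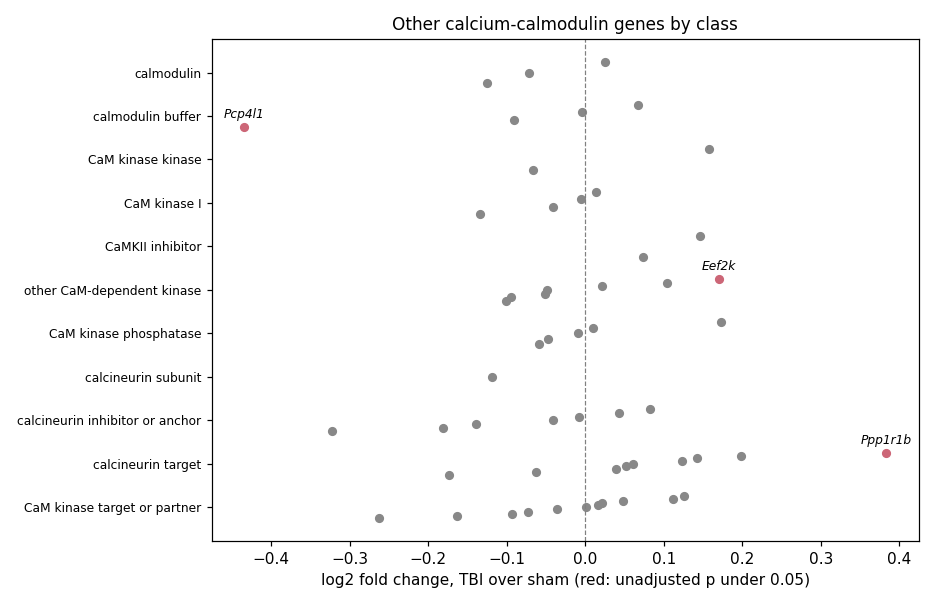
Log2 fold change, TBI over sham, of the 55 other calcium and calmodulin genes tested, 1 point per gene in rows by class, with genes at an unadjusted p under 0.05 in red. Ppp1r1b at 0.38 and Eef2k at 0.17 are the higher red points and Pcp4l1 at -0.43 the lower.

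Upstream, 0 of 3 calmodulin genes and 0 of 2 CaM kinase kinases had an unadjusted p under 0.05 in edgeR's quasi-likelihood test. The count was also 0 of 2 for CaMKII inhibitors and 0 of 4 for CaM kinase I genes, which are not upstream. The gene with the smallest p in each of these classes had a log2 change of -0.12 for Calm2, one of the genes for calmodulin, 0.16 for Camkk2, which activates CaMKI and CaMKIV, -0.13 for Pnck and 0.15 for Camk2n1, an inhibitor of CaMKII. Of the 7 inhibitors and anchors of calcineurin, 0 were called at that threshold, and Chp1, a calcineurin B homologue, came nearest with -0.18. The remaining catalytic subunit, Ppp3cc, had -0.12. The second B subunit, Ppp3r2, is known from testis and was left out by the filter on low counts.

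At the same unadjusted threshold, 1 of 4 genes listed as calmodulin binders or their relatives was called, Pcp4l1, which is not itself known to bind calmodulin as Pcp4 does. Of 7 other calmodulin-dependent kinases 1 was called, Eef2k. Downstream, 1 of 9 calcineurin targets was called, which was Ppp1r1b. The 4 NFAT genes, whose products calcineurin sends to the nucleus, were not called, with log2 changes of 0.20 for Nfatc1, 0.12 for Nfatc2, 0.052 for Nfatc3 and -0.17 for Nfatc4. Of the 11 targets and partners of the CaM kinases 0 were called, and Grin2b, the NMDA receptor subunit to which CaMKII binds, had the smallest p with a log2 change of -0.26. That value turned to 0.013 without the sham rats rich in ribosomal RNA, where Grin2b was 76.5 and 69.5 CPM against 44.9 to 50.7 CPM in the other sham rats. Of the 5 phosphatase genes that act on the CaM kinases or oppose them 0 were called, and Ppm1f had a log2 change of 0.17.

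The other marker lists were read for the cells that the tissue could hold. Of their tested genes, 0 of 7 for neurons, 1 of 4 for CA3 (lower), 3 of 7 for GABAergic cells (lower), 2 of 7 for astrocytes (higher), 3 of 8 for microglia (higher) and 0 of 6 for oligodendrocytes had an unadjusted p under 0.05. The counts were 0 of 5 for endothelium, 2 of 3 for thalamus (higher) and 1 of 4 for choroid plexus (higher). Thalamus markers summed to only 8.62 to 13.2 CPM in sham and 10.5 to 14.7 CPM in TBI rats. Choroid plexus markers summed to 5.56 to 33.9 CPM in sham and 10.9 to 35.2 CPM in TBI rats. Over all records, 4.89% were higher and 3% lower in TBI at an unadjusted p under 0.05, and 0% passed the adjusted threshold. No marker with a record was at 0 over all libraries. The neuronal sum was from 2259 to 2765 CPM in sham and from 2067 to 2513 CPM in TBI rats, with the highest value in sham replicate 1.

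The genes most like 4 of the 8 in pattern were found by the Pearson correlation of log2 CPM over the 10 rats, centred within each group, among 8276 genes with a mean of at least 5 CPM. They are a description with no test, since they were chosen as the highest, and all genes of a rat share its depth and dissection. For Camk2a these were Rxra (r = 0.954), Colgalt1 (0.953) and Srgap3 (0.951). For Camk4 they were Camta1 (0.948), which encodes a calmodulin-binding transcription activator, Upf3b (0.943) and Sart1 (0.941). For Ppp3ca they were Htatsf1 (0.938), Ppp1r14a (0.929) and Tial1 (0.927), and for Ppp3r1 they were Ptges3l1 (0.952), Nae1 (0.942) and Eif4a2 (0.941).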

How the data were processed

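For 10 rats the authors deposited read counts for each RefSeq RNA, not normalized. Per the methods of the study, single reads of 36 bases were aligned to rn4 with BWA and counted over Ensembl transcripts, yet the rows are RefSeq records, and strand was not stated. The methods give 3 control rats for this profiling and the labels 5, all used here. Of 32043 rows, 2 that name no gene were left out (unmapped reads, 12.8% to 26.1% of reads, and a blank entry). Records were named from RefSeq GRCr8, used for names only, which gave symbols to 54.2% of the records.

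Records with a total count of at least 44, the 30th percentile, were tested with the quasi-likelihood test of edgeR 4.0.16 (robust, TMM) in R 4.3.3, with Benjamini-Hochberg adjustment over all 22431. Alternatives used other edgeR tests, DESeq2 1.42.0, and limma 3.58.1 with voom and sample weights, by which rats count unequally. They also used other scalings and filters, summed records, a ribosomal RNA covariate and left-out rats. Ratios used log2 CPM with a prior count of 2. In simulated data 200 of 22431 records were given a log2 change of 1, of which 166 were found beside 12 false ones, or of 0.5, which gave 78 and 8. No library copied another (chi-square per degree of freedom 8.52 at least over 45 pairs). The pathway genes named were those with p under 0.05 in each class, or else the one with the smallest p. The 8 genes, the lists, the tests and the alternatives were chosen with earlier results of these data known. P-values cover the spread between these rats. Figures used matplotlib 3.10.9.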

Additional observations from a re-analysis of the deposited data

Results flagged for a closer look

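In 52 groups of 5 rats (levels of the 8 genes and 11 named pathway genes, the 4 ratios and 3 library measures), 2 held a rat whose distance to its nearest neighbour, relative to the range of the group, exceeded the 95% limit of Dixon's test. Chance alone would give about 2.6. Ppp3r1 was 373 CPM in TBI replicate 2, below the other TBI rats (433 to 455 CPM), and without it the log2 change of Ppp3r1 was -0.068 in place of -0.12. Camkk2 was 96.3 CPM in TBI replicate 4, above the other TBI rats (75.1 to 78.0 CPM), and without it the log2 change of Camkk2 was 0.087 in place of 0.16.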

How the results depend on the processing

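At an adjusted p of 0.05 the count over all records was 0 with the main test, 3 with DESeq2, 92 with total count scaling and from 0 to 12 when 1 rat was left out (5 without sham replicate 3, 12 without TBI replicate 3). At an unadjusted p under 0.05 it was 1769, with 3788 under total count scaling, 795 with the share of ribosomal RNA as a covariate and 1162 to 2571 without 1 rat (1162 without sham replicate 2). Of the 8 genes 0 passed that threshold, and 1, Camk4, did with total count scaling, with the covariate and without the sham rats rich in ribosomal RNA. Leaving out 1 rat gave 0 to 1 of the 8. Of the 55 pathway genes tested 3 passed, and 6 did with voom and sample weights, 8 with total count scaling and 1 with the covariate. The count was 1 without the sham rats rich in ribosomal RNA. Without 1 rat it was 2 to 7 (5 without sham replicate 1, 7 without sham replicate 3, 5 without TBI replicate 5). The count over all records also moved between these fits. It was 1844 with voom and sample weights and 1256 without the sham rats rich in ribosomal RNA. Without sham replicate 1 it was 1879, without sham replicate 3 it was 2571 and without TBI replicate 5 it was 1460. The cause was not tested.

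Total count scaling turned the sign of the log2 change of Camk2d (0.41), Camk2g (0.36), Ppp3cb (0.43), Ppp3r1 (0.38), Calm2 (0.39), Pcp4l1 (0.12), Pnck (0.36), Ppp3cc (0.38), Chp1 (0.33) and Grin2b (0.35), as it raised the median of all records. Changes near 0 turned sign elsewhere. When 1 rat was left out, Camk2b was from -0.023 to 0.062 (below 0 without sham replicates 1, 2 or 4 or TBI replicates 3 or 4), Camk2d from -0.22 to 0.010 (without TBI replicate 3), Ppp3ca from -0.0087 (without sham replicate 1) to 0.10 and Ppp3cb from -0.080 to 0.018 (without sham replicate 1). Ppp3cb was 0.0022 with voom and sample weights. With the covariate Ppp3ca was 0.17 and Ppp3cb -0.15. Without TBI replicate 2 Camk2a was 0.043 and Ppp3r1 -0.068, and without sham replicate 2 Camk4 was 0.092. Grin2b was 0.16 with the covariate and 0.013 without the sham rats rich in ribosomal RNA. The log2 difference of Camk2a over Camk2b was -0.0095 without those rats and from 0.0039 to 0.14 without 1 rat. Without 1 rat that of Camk2d over Camk2g was from -0.12 (without TBI replicate 1) to 0.11, that of Ppp3ca over Ppp3cb from -0.030 (without sham replicate 1) to 0.17 and that of Ppp3r1 over Ppp3ca from -0.23 (without sham replicate 3, exact permutation p = 0.0317) to -0.11. For Ppp3r1 over Ppp3ca the exact permutation p was under 0.05 in 1 of 13 alternatives. No paired analysis was possible because the rats carry no number shared between groups.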

Other observations

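Ratios of calcineurin subunits were spread more widely in sham than in TBI rats. The SD of the log2 ratio was 0.219 in sham and 0.0421 in TBI rats for Ppp3r1 over Ppp3ca, and 0.318 and 0.0825 for Ppp3ca over Ppp3cb (n = 5 each). Both of these ratios contain Ppp3ca, so they are not independent. For Camk2d over Camk2g the order was the opposite, with 0.167 in sham and 0.341 in TBI rats. Camk2a over Camk2b also had the opposite order, with 0.178 in sham and 0.239 in TBI rats. These spreads were noticed after the values were seen, and the difference was not tested.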
